A study of Sus scrofa domesticus with 4 samples.

Results

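The genes described here encode nuclear subunits of the mitochondrial respiratory chain and ATP synthase, the carriers of the inner mitochondrial membrane and the channels of the outer one. They were taken by name: every non-control probe whose accession leads, through RefSeq, to a symbol that begins with NDUF, UQCR, COX4 to COX8, ATP5, SLC25 or VDAC, to SDHA, SDHB, SDHC or SDHD, or to CYC1 or CYCS. The rule itself uses names alone. It gave 148 probes of 39 genes, out of 43603 probes on the array. Tests were limited to probes with a signal well above background for treated or for untreated RNA on each of the 4 arrays, which kept 134 of these probes and 32 genes, out of 13782 tested probes. Each gene is represented by its brightest tested probe unless stated otherwise.

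In oxidative phosphorylation, complexes I and II pass electrons from NADH and succinate to ubiquinone, complex III passes them on to cytochrome c, and complex IV hands them to oxygen. Complexes I, III and IV pump protons, and complex V uses the proton gradient to make ATP. Carriers of the SLC25 family move phosphate, nucleotides and other metabolites across the inner membrane, and VDACs are the main pores for metabolites in the outer membrane. The endometrium, the lining of the uterus, is a secretory tissue around the time when the pig conceptus attaches.

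The explants came from the uterine horns of 4 mature gilts, Large White x Polish Landrace, aged 7 to 8 months and weighing 120 to 130 kg, in pregnancy between day 15 and day 16. The treated group was cultured with 10 nM orexin B, a hypothalamic peptide that also acts in the reproductive tract, for 24 h. The untreated group was cultured for the same time without any addition, and all cultures had a 2 h preincubation. Explants are pieces of mixed tissue, in which glands, surface epithelium, stroma, vessels and leukocytes lie together, and both groups carry the effect of culture. Each of the 4 two-colour arrays held treated RNA in one dye and untreated RNA in the other. The dye labels place treated RNA in Cy5 for arrays 1 and 3, with the dyes swapped for arrays 2 and 4. Which gilt gave which array is not labelled. The 4 arrays therefore served as replicates, and p-values measure only the spread between them, which may be technical. All ratios below are log2 of treated over untreated, and positive values mean more signal in the treated RNA.

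The precision is limited by the number of arrays. Between 27.8% and 36.2% of spots were well above background in Cy3, against 82.4% to 86.7% in Cy5 on arrays 1, 3 and 4 and 46.8% on array 2, which lay on another slide and was scanned on another day. The tissue label was checked against marker genes. The lists held 12 epithelial, 9 stromal, 7 endothelial, 7 smooth muscle and 13 leukocyte markers. Of these 6, 5, 4, 4 and 10 were named on the array, and 6, 4, 4, 4 and 6 were tested. Of 5 red blood cell markers only 1 was named and 0 were tested, so these markers say little about blood. Of 10 markers of trophoblast and conceptus 8 were named and 5 were tested, some of which the endometrium also expresses.

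Respiratory chain and carrier genes mostly had a slightly higher ratio in the treated explants, and the differences were small against the spread between arrays. Of the 32 tested genes 23 had a ratio above 0 and 9 below, or 71.9% above, where 43.9% of the brightest probes of all 1637 tested named genes were above 0. Among the 134 probes 98 were above 0, which is 73.1% against 53.1% of all tested probes. The median ratio of the genes was 0.10, beside 0.02 for all tested probes and -0.02 for all named genes. In single genes the ratios ran from -0.24 for COX7A1 to 0.46 for VDAC2. The 95% interval of the fit included 0 for 31 of the 32 genes.

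No member passed the threshold. Limma with Benjamini-Hochberg adjustment over all tested probes called 0% of them at an adjusted p under 0.05, and the smallest adjusted p among the members was 0.999. At an unadjusted p under 0.05, 3 member probes had a higher ratio (2.24%, against 1.72% of all tested probes) and 0 had a lower one (against 1.87%). These 3 were the brightest VDAC2 probe, 1 of the 13 ATP5A1 probes and 1 of the 6 SLC25A6 probes. A ratio above 0 on 4 of 4 arrays was found for 13 member probes, or 9.70%, against 3.69% of all tested probes. None of the members was below 0 on 4 of 4 arrays, against 3.61% of all tested probes. In explants, a change in the share of a cell type and a change of RNA per cell cannot be told apart.

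**Figure D1:**
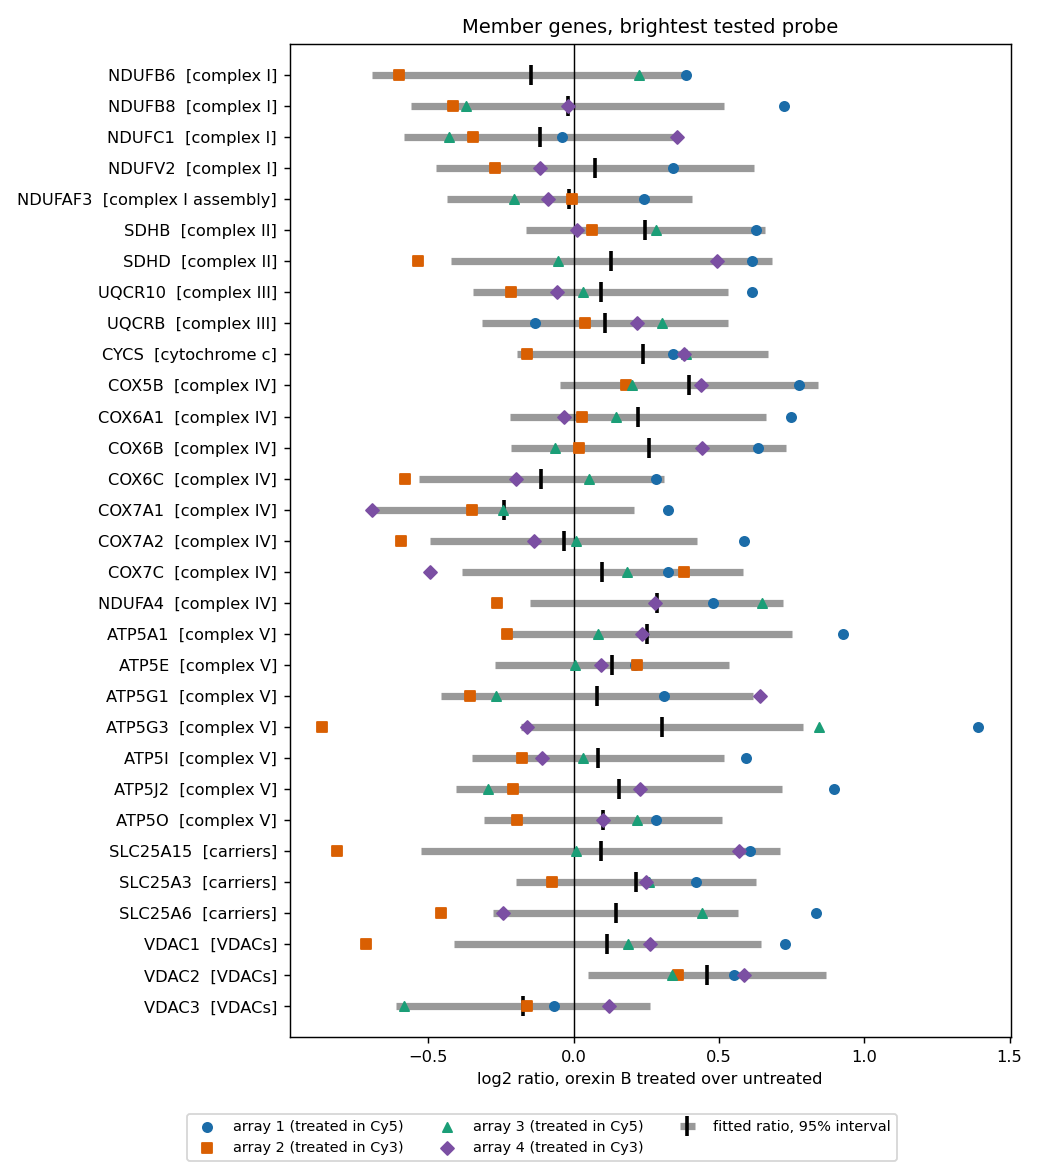
Log2 ratio of treated over untreated RNA for the brightest tested probe of each of 31 genes, with 1 symbol per array and the fitted ratio as a black bar with its 95% interval in grey. Array 1 (blue circles) gave the highest value for 22 of the genes drawn and array 2 (orange squares) the lowest for 19. VDAC2 is the only gene shown whose interval lies above 0.

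The values differed widely between arrays. On array 1 the median ratio of the member probes was 0.41 and on array 2 it was -0.22, while arrays 3 and 4 gave 0.16 and 0.20. All tested probes had array medians between -0.03 and 0.06. On array 1, 78.4% of the member probes were above 0 and on array 2 only 23.5%, against 48.1% and 54.4% of all tested probes. Counted by genes, 90.6% of the members were above 0 on array 1 and 25% on array 2. All tested named genes had the same order with a smaller gap, at 54.8% and 38.1%, with medians of 0.09 and -0.13. Array 1 was above array 2 for 29 of the 32 genes. Without array 1 the median of the genes was -0.03, beside 0.03 for all tested probes. Then 15 of 32 genes were above 0, or 46.9%, against 54.2% of all tested probes and 40.5% of the named genes. Without array 2, which also leaves only arrays of a single slide, the median was 0.20, beside -0.01 for all tested probes. In that fit 27 of 32 genes were above 0, or 84.4%, against 47.2% of all tested probes and 49.2% of the named genes. That fit called 15 of all tested probes at an adjusted p under 0.05, and 0 of them were members.

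Marker genes also differed between arrays, in another order than the members did. Median ratios of the epithelial markers on arrays 1 to 4 were -0.69, -0.51, -0.24 and 0.52, and those of the stromal markers were 0.69, 0.23, 0.85 and -0.44. The fitted medians were -0.19 for epithelial, 0.22 for stromal, -0.21 for endothelial, -0.32 for leukocyte and 0.34 for trophoblast and conceptus markers. Above 0 were 2 of 6 epithelial, 4 of 4 stromal, 0 of 4 endothelial, 1 of 6 leukocyte and 4 of 5 trophoblast and conceptus markers. Epithelial markers ran from -0.54 (CLDN3) to 0.35 (KRT8), and those of trophoblast and conceptus from -0.42 (IL1B2) to 1.14 (TFAP2C). The members were also brighter than other probes, with a median log2 signal of 12.94 against 10.48 for all tested probes. Their dye term, the part of the Cy5 over Cy3 ratio that does not turn with the treatment, had a median of 0.17 against -0.05. The part of cell composition, brightness or dye in the ratios was not tested. In the authors' deposited value table the members' median was 0.12, and under median centring in place of loess it was 0.50, where all tested probes moved to 0.28. Under median centring 32 of 32 genes were above 0, as were 89.0% of all tested probes.

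**Figure D2:**
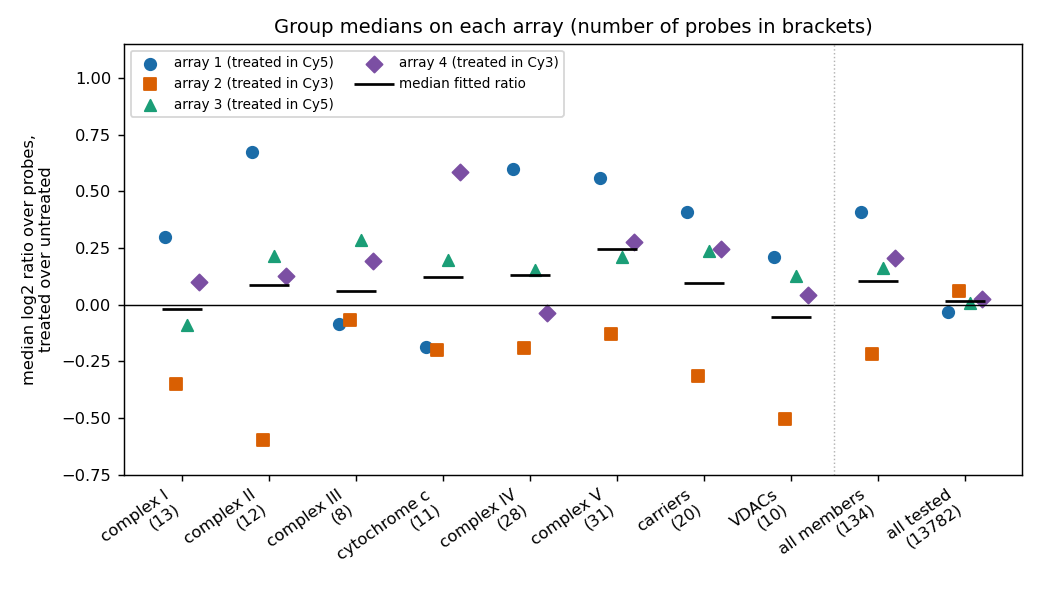
Median log2 ratio over the tested probes of each group, 1 symbol per array, with the median of the fitted ratios as a black bar; the number of probes stands in brackets. Array 2 lies lowest or nearly lowest in every group of members, and complex III and cytochrome c differ from the other groups of members in that array 1 also lies below 0. NDUFAF3 is counted only among all members.

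Complex I takes electrons from NADH, and the median of its 4 tested genes was the nearest to 0 among complexes I to V. This median was -0.07, with 1 gene above 0 and 3 below, and 5 of the 13 probes of complex I were above 0. NDUFV2, an iron-sulphur subunit of the part that oxidises NADH, stood at 0.07 ± 0.22 (moderated SE, n = 3 arrays, since array 3 had an outlier spot). Its other probes ran from -0.09 to 0.06. Accessory subunits of the membrane arm gave -0.15 ± 0.22 for NDUFB6 (n = 3 arrays), -0.02 ± 0.23 for NDUFB8 and -0.11 ± 0.20 for NDUFC1. The signs of NDUFV2 and NDUFB6 turned when the fit had no dye term (-0.015 and 0.004). NDUFB8 had ratios of 0.72, -0.41, -0.37 and -0.02 on arrays 1 to 4. Array 1 alone was above 0 for this gene. Its 4 probes ran from -0.06 to 0.22, and the mean of them was 0.06. The assembly factor NDUFAF3, which is not a subunit of the finished complex, stood at -0.01 ± 0.18, the gene nearest to 0 of all members.

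Complex II, the only complex that also works in the citric acid cycle, was represented by SDHB and SDHD. SDHB, the iron-sulphur subunit, had ratios of 0.63, 0.06, 0.28 and 0.01 on the 4 arrays, all above 0, and a fitted ratio of 0.25 ± 0.17 (95% interval -0.17 to 0.66). Its other 6 probes were lower, from -0.05 to 0.20, and on array 2 the median of its probes was -0.60. The brightest probe was the only SDHB probe above 0 on array 2. SDHD, a membrane anchor, gave 0.61, -0.53, -0.05 and 0.49, so its sign changed between arrays, and its fitted ratio was 0.13 ± 0.23. Over all 12 probes of the complex the array medians were 0.67, -0.60, 0.21 and 0.13, the widest spread of any group drawn in the plot of group medians.

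In complex III the genes differed in the order of the arrays. UQCRB, the small subunit at the ubiquinone site, had ratios of -0.13, 0.04, 0.31 and 0.22, and a fitted ratio of 0.11 ± 0.18. Array 1 was the lowest here, where it was the highest for most members. UQCR10, another small subunit, gave 0.61, -0.22, 0.03 and -0.06 (fitted 0.09 ± 0.19). CYCS, which carries electrons between complexes III and IV and starts caspase activation when it leaves the mitochondrion, gave 0.34, -0.16, 0.39 and 0.38 (fitted 0.24 ± 0.18, interval -0.19 to 0.67). Its array 2 value lay apart from 3 nearly equal ones. The 11 tested CYCS probes were not in accord: 7 were above 0 and 4 below, with array medians of -0.19, -0.20, 0.20 and 0.59 and a mean ratio of 0.08 ± 0.20. CYCS has processed copies in mammalian genomes, and the probes could also bind their transcripts.

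Complex IV, cytochrome c oxidase, had 8 tested genes, 5 above 0 and 3 below, with a median of 0.16. COX5B had the highest ratio, with 0.78, 0.18, 0.20 and 0.44 on the 4 arrays and 0.40 ± 0.19 in the fit (interval -0.05 to 0.84). All 4 arrays were above 0 for this probe. The fitted ratios of its 3 probes ran from 0.18 to 0.40, and the lowest of them stood at -0.62 on array 2. NDUFA4, named after complex I but now counted as a subunit of complex IV, gave 0.48, -0.26, 0.65 and 0.28 (fitted 0.29 ± 0.18), and its 6 probes lay between 0.09 and 0.33. COX6B stood at 0.26 ± 0.20, COX6A1 at 0.22 ± 0.19 and COX7C at 0.10 ± 0.21. The 5 COX6A1 probes and the 3 COX7C probes were all above 0 in the fit. For COX7C arrays 1 to 3 lay between 0.18 and 0.38 and array 4 at -0.49.

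Subunit VIIa was represented by a pair of isoforms. COX7A1, the isoform of heart and muscle, had the lowest ratio of all members, at 0.33, -0.35, -0.24 and -0.69 on arrays 1 to 4 and -0.24 ± 0.19 in the fit (interval -0.69 to 0.21). Its 3 lower arrays include both dye orientations. The ratio was 0.28 with treated RNA taken as Cy5 throughout and 0.10 under median centring. COX7A2, the isoform found in most tissues, stood at -0.03 ± 0.19, with 5 probes from -0.11 to 0.19. The 4 tested smooth muscle markers had a median of -0.14, with array medians of 0.58, -0.69, 0.03 and -0.39, and their part in the COX7A1 ratio was not tested. COX6C, the remaining gene below 0, stood at -0.11 ± 0.18, with probes from -0.11 to 0.05.

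Complex V, the ATP synthase, had mostly positive ratios. All of its 7 tested genes and 30 of its 31 tested probes had a fitted ratio above 0, with a median of 0.25 over probes and 0.13 over genes, and array medians over probes of 0.56, -0.13, 0.21 and 0.28. Without array 1 the median over genes was 0.04, and ATP5G1 (-0.06), ATP5I (-0.06) and ATP5J2 (-0.14) lay below 0. Array 2 again opposed the others, and 13 and 10 of these probes belong to ATP5A1 and ATP5O, so that the probes are not independent. ATP5A1, the alpha subunit of the catalytic head, had 13 of 13 probes above 0, from 0.15 to 0.47. The median of its probes was 0.75, -0.18, 0.17 and 0.35 on arrays 1 to 4, and the limma fit on their mean gave 0.31 ± 0.19 (limma, unadjusted p = 0.148). The brightest of them stood at 0.25 ± 0.21, and at 0.04 without array 1.

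Other parts of the ATP synthase gave the following values. ATP5O, which joins the head to the peripheral stalk, had 10 of 10 probes above 0, from 0.02 to 0.33, with a mean of 0.19 ± 0.17. Its probe medians were 0.34, -0.01, 0.29 and 0.22, so array 2 was near 0 rather than clearly below it. ATP5G1 and ATP5G3 encode the same mature subunit c of the rotor ring with different import peptides. ATP5G3 had the widest spread of all representative probes, at 1.39, -0.86, 0.84 and -0.16, with a fitted ratio of 0.30 ± 0.21 and a dye term of 0.81. Its treated signal was higher on both arrays with treated RNA in Cy5 and lower on both with it in Cy3. ATP5G1 gave 0.31, -0.36, -0.27 and 0.64 (fitted 0.08 ± 0.23). ATP5E, of the central stalk, was above 0 on all arrays by small amounts (0.21, 0.22, 0.00 and 0.10, fitted 0.13 ± 0.17). Its other, dimmer probe gave -0.30 on array 1 and 0.55 on array 2. ATP5J2 stood at 0.15 ± 0.24 and ATP5I at 0.08 ± 0.18, both small membrane subunits.

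Of the 8 SLC25 carriers on the array 4 were tested, and they carried the substrates of ATP synthesis among others. SLC25A3, which imports phosphate, gave 0.42, -0.07, 0.26 and 0.25 and a fitted ratio of 0.21 ± 0.18, with 8 of 10 probes above 0 (-0.01 to 0.36). SLC25A6, which exchanges ADP for ATP, had its brightest probe at 0.83, -0.45, 0.44 and -0.24 (fitted 0.14 ± 0.18). A second SLC25A6 probe of nearly the same brightness was above 0 on all arrays, at 0.74, 0.35, 0.27 and 0.39, with a fitted ratio of 0.44 ± 0.18 (limma, unadjusted p = 0.0446, adjusted p = 0.999). All 6 probes of this gene were above 0 in the fit. SLC25A6 has close relatives that exchange the same nucleotides, and cross-binding between them was not tested.

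SLC25A15, the ornithine carrier of the urea cycle, gave 0.61, -0.81, 0.01 and 0.57 (fitted 0.09 ± 0.26), and its untreated signal was above background on 3 of 4 arrays.

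The 3 VDAC genes encode close relatives, and they gave the highest and the second lowest ratio of all members. VDAC2, which also holds the cell death factor BAK in check, had treated log2 signals of 13.27, 12.78, 13.09 and 12.87 on arrays 1 to 4 and untreated signals of 12.72, 12.42, 12.75 and 12.29. The treated signal was higher on every array, with ratios of 0.55, 0.36, 0.34 and 0.59. The fitted ratio was 0.46 ± 0.17 (1.37-fold, interval 0.05 to 0.87), with a dye term of -0.01. Limma gave an unadjusted p = 0.0326 and an adjusted p = 0.999. With single arrays left out, the ratio ranged from 0.40 to 0.52. The labelling protocol can also be read as treated RNA in Cy5 throughout, and the ratio is -0.01 under that reading. The authors' value table turns arrays 2 and 4, as the dye labels do, and gave 0.32 for this probe. The other, dimmer VDAC2 probe gave 0.80, -0.62, 0.83 and 0.00, so it was above 0 on arrays 1 and 3 alone, with a fitted ratio of 0.25 ± 0.19 and a dye term of 0.56.

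VDAC3 lay on the other side of 0. Its brightest probe gave -0.07, -0.16, -0.58 and 0.12 (fitted -0.17 ± 0.19), and 6 of its 6 probes were below 0, from -0.17 to -0.02. VDAC1, the most studied channel of the family and a docking site of hexokinase, gave 0.73, -0.71, 0.19 and 0.26 (fitted 0.12 ± 0.22), and its second probe stood at -0.13. Compared within each array by their brightest probes, VDAC2 exceeded VDAC3 by 0.62, 0.52, 0.92 and 0.46, a mean of 0.63 ± 0.20 (SD, n = 4). The exact two-sided permutation test that turns the sign of each array gave p = 0.125, the smallest that 4 arrays allow, and 0.375 adjusted over the 3 pairs of VDAC genes. VDAC2 exceeded VDAC1 by 0.34 ± 0.53 (SD, n = 4) and VDAC1 exceeded VDAC3 by 0.29 ± 0.64 (SD, n = 4), each on 3 of 4 arrays with an exact p = 0.375. The dimmer VDAC2 probe lay above the brightest VDAC3 probe on arrays 1 and 3. It lay below that probe on array 2 (-0.62 against -0.16) and array 4 (-0.003 against 0.12).

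**Figure D3:**
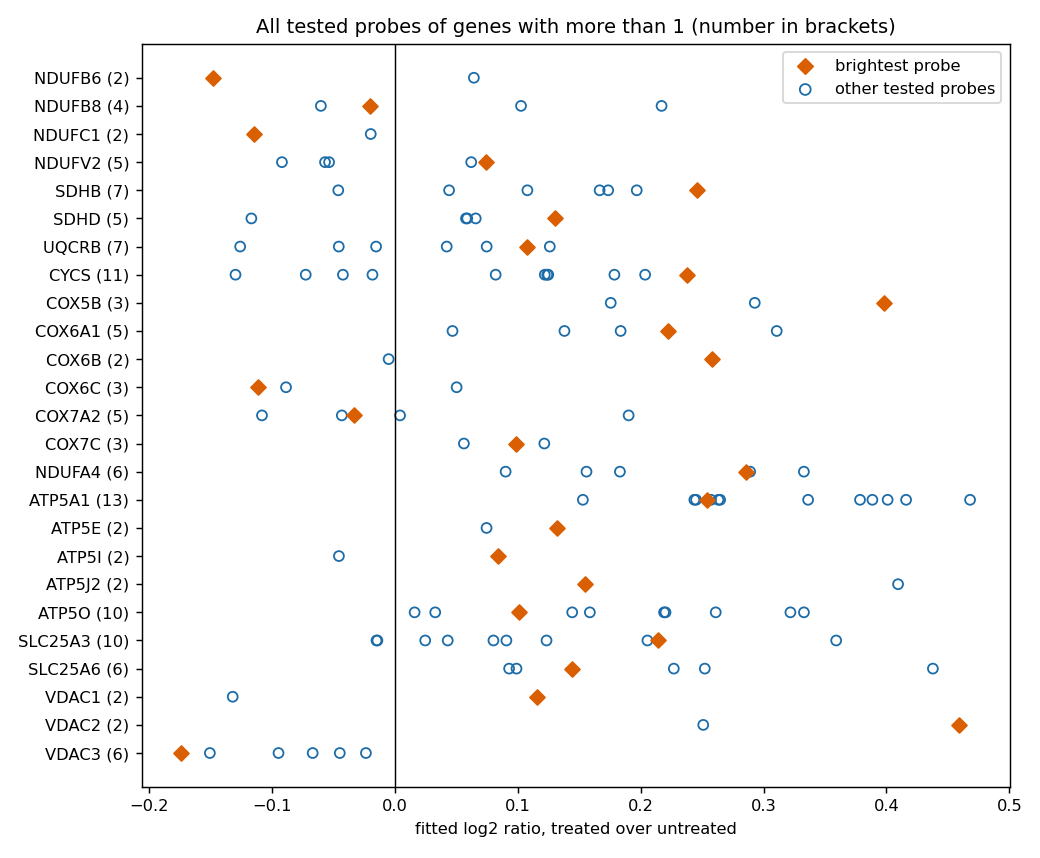
Fitted log2 ratio of every tested probe of 25 genes with more than 1, with the brightest probe as an orange diamond and the others as open circles. ATP5A1 and ATP5O lie wholly above 0 and VDAC3 wholly below, while the probes of CYCS, UQCRB and COX7A2 lie on both sides.

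Probes of the same gene gave a further view of the error. Of the 26 genes with more than 1 tested probe, 10 had all probes above 0, 2 had all below and 14 had probes of both signs. For 6 genes the brightest probe and the mean of the probes had opposite signs. Among the 13 genes with 5 or more tested probes, the median SD between probes was 0.10, beside a median moderated SE of 0.19 for a member probe. Probes of a gene share the RNA of each array, so their number adds nothing to the 4 replicates.

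In all 13 genes with 5 or more tested probes the dye term had a wider range between probes than the treatment ratio. Among genes with fewer probes the order was reversed for some, as for COX6C (0.08 against 0.16). The dye term ran from -0.44 to 0.15 in CYCS, from -0.43 to 0.19 in UQCRB, from -0.40 to 0.25 in ATP5O and from -0.35 to 0.33 in NDUFA4. On array 1, probes of CYCS ran from -0.73 to 0.34 and probes of ATP5O from -0.45 to 0.56, although each set is named for a single gene. For 64.2% of the member probes the dye term was larger in size than the treatment ratio, against 64% of all tested probes. The dye term rests on 2 arrays of each orientation.

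**Figure D4:**
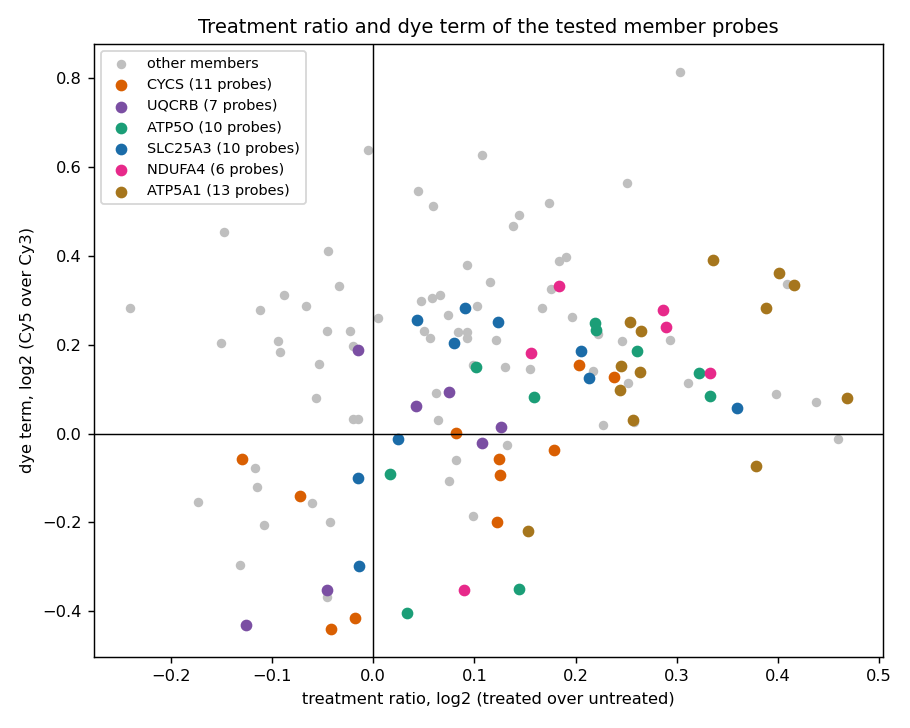
Dye term (vertical axis, log2) against treatment ratio (horizontal axis, log2) for 131 tested member probes, with the probes of 6 genes in colour and all others in grey. Probes of CYCS (orange) spread from -0.44 to 0.15 on the dye axis.

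Members below the detection limit were mostly seen in Cy5 alone, the channel in which more spots of the whole array were above background. Over all spots the share was 46.8% to 86.7% in Cy5 and 27.8% to 36.2% in Cy3. The 14 probes that were not tested include all probes of 7 genes: ATP5L, COX8H, NDUFA4L2, SLC25A23, SLC25A24, SLC25A25 and SLC25A27. Of these probes 12 were above background in at least 3 Cy5 channels, 0 in all 4 Cy3 channels and 10 in no Cy3 channel. Both COX8H probes, of the heart and muscle isoform, and all probes of the calcium-regulated ATP-Mg/phosphate carriers SLC25A23, SLC25A24 and SLC25A25 were above background in no Cy3 channel. No ratio is given for these genes. Every tested complex other than IV and V kept all of its genes.

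Genes of neighbouring mitochondrial pathways gave ratios of a like size. Of 18 listed genes of the citric acid cycle 11 were named on the array. All 11 were tested and above 0, with a median of 0.14. Their medians on arrays 1 to 4 were 0.56, -0.27, 0.09 and 0.30, and 0 of them had an unadjusted p under 0.05. They ran from PDHB (0.02 ± 0.17), of pyruvate dehydrogenase, to MDH2 (0.22 ± 0.20), mitochondrial malate dehydrogenase. Array 1 was the highest and array 2 the lowest, as for the members. Of 27 listed genes of protein import and chaperones 3 were named on the array, and all 3 were tested. These 3 lay between 0.08 ± 0.19 (TOMM7, of the outer membrane translocase) and 0.29 ± 0.19 (HSPE1, the matrix co-chaperonin). Of 6 tested mitochondrial ribosome genes, out of 7 on the array, 4 were above 0 (median 0.09), from MRPL24 (-0.30 ± 0.19) to MRPL58 (0.20 ± 0.20). These lists were described in the same way as the members, and no gene in them passed the adjusted threshold.

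Other lists were mixed or lay below 0. Fatty acid oxidation had 9 of 16 genes tested, 5 above 0 and 4 below (median 0.07), from ACADL (-0.26 ± 0.20) to HADH (0.35 ± 0.19), both dehydrogenases of the pathway. Antioxidant enzymes had 7 of 9 tested, 5 above 0 (median 0.04), from the glutathione peroxidase gene GPX1 (-0.41 ± 0.17) to the mitochondrial peroxiredoxin PRDX3 (0.20 ± 0.19). GPX1 was the 1 gene of that list with an unadjusted p under 0.05. Glycolysis had 9 of 18 tested, 3 above 0 and 6 below (median -0.08), from PDK4 (-0.59 ± 0.35), a kinase that inhibits pyruvate dehydrogenase, to GAPDH (0.41 ± 0.23), a step of the pathway itself. The PDK4 value rests on array 1, at -2.64, while the other arrays gave 0.73, -0.44 and -0.02. PDK1, a kinase related to PDK4, stood at -0.53 and was the 1 gene of the list with an unadjusted p under 0.05. Of 20 genes of mitochondrial biogenesis and transcription 4 were tested, 2 on each side of 0, from the coactivator PPARGC1A (-0.20 ± 0.18) to TFB1M (0.09 ± 0.18). In the list of mitochondrial dynamics and permeability, 3 of 26 genes were tested and all lay below 0, from UCP2, an uncoupling protein of the carrier family (-0.50 ± 0.21), to DIABLO (-0.02 ± 0.22). Of the 13 transcripts of the mitochondrial genome 0 were named on the array, so none could be tested. Of 24 assembly factors 1 was named, and it was not tested. The other totals above also count genes that were not named. Named on the array were 11 genes of fatty acid oxidation, 7 antioxidant enzymes and 11 genes of glycolysis. For biogenesis and transcription 7 were named, and for dynamics and permeability 6.

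**Figure D5:**
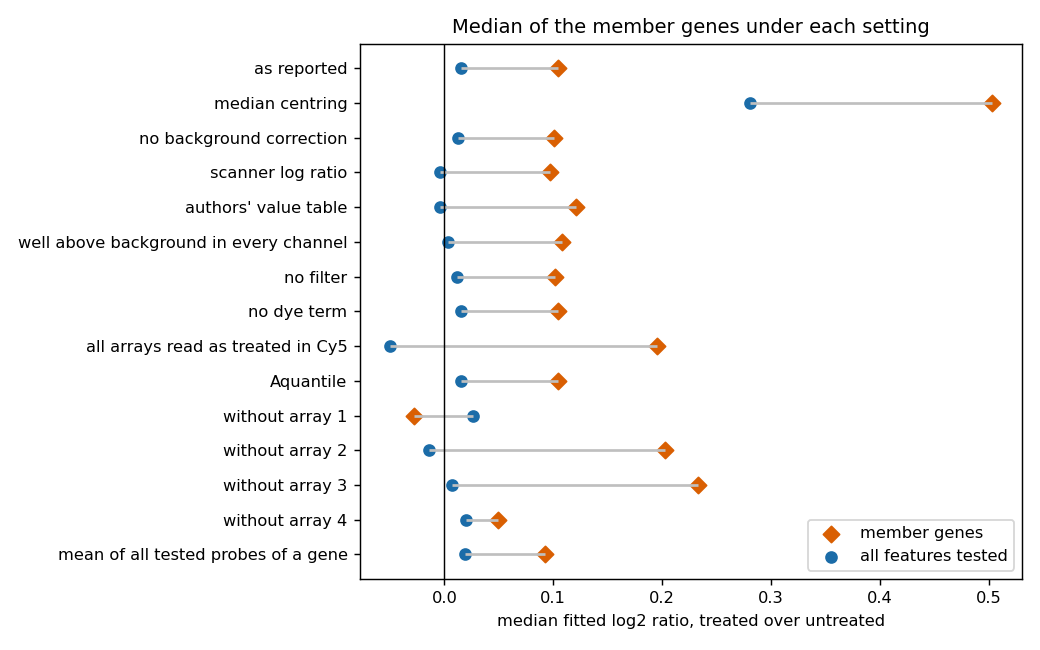
Median fitted log2 ratio of the member genes (orange diamonds) and of all features tested (blue circles) under each setting, joined by a grey line. The members lie above all tested features in every setting shown except without array 1, where they stand at -0.03 against 0.03.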

How the data were processed

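Per the file headers, the arrays (design 026440) were read with version 10.7.3.1 of Agilent's Feature Extraction, and the deposited scanner files hold a spot intensity per channel and a log10 ratio of Cy5 over Cy3. The authors' value table holds log2 ratios; over the tested probes it correlated at 1 (arrays 1 and 3) or -1 (arrays 2 and 4) with the scanner ratio, so its columns run as treated over untreated. Its columns are not centred (medians 0.18, 0.29, 0.01 and 0.03).

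Median signals were background-corrected by normexp (offset 50) and normalised by loess in limma 3.58.1 (R 4.3.3), with control and outlier spots at weight 0; outlier spots were then left out and spots averaged per probe. lmFit and eBayes fitted a treatment and a dye term over all 13782 tested probes (2 residual and 5.09 prior degrees of freedom), with Benjamini-Hochberg adjustment. SEs and intervals are moderated. The script was tested on simulated data. RefSeq names (Sscrofa11.1 gene table, symbols as given there, some older) were matched without accession versions, for 6700 probes of 3029 genes. No spot was saturated, and 8 tested member probes lacked 1 array. Signals per condition follow loess and Aquantile.

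The members and lists were chosen with earlier results of these data known. Named were the 4 highest and 4 lowest genes of complexes I, III, IV and V and of the carriers, every gene of the smaller groups, members with an unadjusted p under 0.05, with 1 sign on 4 arrays or with probes of both signs, and the highest and lowest gene of each list. Of the tested genes 1 is counted in the totals and not reported here. Alternatives changed normalisation, background, filter, dye handling, probe choice and arrays. Promoter motifs and protein sequences were not analysed here.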

Additional observations from a re-analysis of the deposited data

Results flagged for a closer look

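This check left out the probes of the gene that is not reported here. Of the 123 other tested member probes with values on 4 arrays, 2 (1.63%) had an array far from the others by Dixon's criterion. Chance alone gives about 5%, or 1 in 20. For the brightest CYCS probe, array 2 gave -0.16 and the others 0.34 to 0.39. For 1 of the dimmer SLC25A3 probes, array 2 gave -0.67 and the others 0.24 to 0.32. Array 2, from the other slide, lay apart in both.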

How the results depend on the processing

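With median centring in place of loess, all tested probes moved to a median of 0.28 and the medians of the groups to 0.50 (all members), 0.35 (complex I), 0.38 (NDUFAF3), 0.56 (complex II), 0.51 (complex III), 0.66 (CYCS), 0.58 (complex IV), 0.54 (complex V) and 0.48 (VDACs). The carriers, at 0.41, moved by less than the SD between array medians. Leaving out each array in turn gave 0 to 15 probes called over all tested probes (15 without array 2), 15 to 27 member genes above 0 and a median of -0.03 to 0.23 over the members. Under the other settings the medians moved by less than the SD between array medians. That SD is a wide limit, at 0.31 for all members beside a median of 0.10. Within such a limit the VDAC median still ran from -0.13 to 0.36 with single arrays left out. The sign of the ratio stayed above 0 under all settings for 11 genes. Median centring, which raised all tested probes, put every member above 0, and VDAC3 was below 0 in the other 13 of 14 alternatives. Signs changed for 9 genes with median centring, 11 with treated RNA taken as Cy5 throughout, 8 without array 1 and 6 with the authors' table. The median over probes in place of genes was added after seeing the data. It gave 0.10, and -0.06 for the VDACs. The cause of these shifts was not tested. No paired analysis was possible because there is nothing to pair beyond the arrays: each ratio already pairs treated with untreated RNA on its array. A block for the slide or scan day would hold array 2 alone, so its value is the one without array 2.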
